A study of Caenorhabditis elegans with 9 samples.

Results

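The genes described here encode proteins of the cytosolic ribosome of the nematode Caenorhabditis elegans. They were chosen by symbol alone, as every gene named rpl- or rps- followed by a number, with or without a decimal, in the annotation of the array. A gene was taken where at least 1 probe set matched it and no other gene, and its brightest probe set by the mean of 9 arrays stood for it. That gave 62 of 17118 genes, of which 35 belong to the large subunit and 27 to the small subunit. The genes rpl-37.1 and rpl-37.2 also fit the symbol rule but share a single probe set, so neither has a value of its own. That shared probe set read between 12.39 and 12.90 on the log2 scale over the 9 arrays.

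The ribosome translates mRNA into protein. The small subunit binds the mRNA and reads its codons, the large subunit joins the amino acids, and the growing chain leaves through a tunnel in the large subunit. Ribosomal proteins surround the ribosomal RNAs that do this work, most are needed in every cell, and their mRNAs are among the most abundant in growing larvae. Ribosomal protein genes are therefore not taken here as markers of any single cell type. Whether single members differ between tissues was not tested.

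The study asked which genes respond to Wnt signaling in the lateral hypodermal seam cells and the vulval precursor cells (VPCs) of larvae at the L2 to L3 stage. Expression was measured on Affymetrix C. elegans GeneChip arrays, with 3 arrays for each of 3 conditions, which the methods describe as biological replicates. In Wnt overactivation (deIs10; huIs1), a heat shock promoter drove ΔNTBAR-1, a β-catenin that lacks the amino terminal part through which it is degraded. In Wnt underactivation (deIs10; deIs26), a heat shock promoter drove ΔNTPOP-1, a form of the TCF protein POP-1 that lacks its β-catenin binding part. The control was the wild-type strain N2, with neither transgene. Both deIs10 strains carry FLAG-tagged poly(A) binding protein (FLAG::PAB-1) under a bar-1 enhancer active in seam cells and VPCs, and both have the dpy-20(e1282) and unc-30(e191) alleles in their background. Their transgenes also hold normal copies of these genes, unc-30(+) in deIs10 and dpy-20(+) in huIs1 and deIs26. The marker ajm-1::gfp is part of deIs10 as well. All 3 conditions received the heat shock and a recovery period, and N2 went through the same FLAG immunoprecipitation although it has no tag. A difference from N2 therefore covers tag, strain background and Wnt transgene together, while overactivation against underactivation compares 2 tagged strains. The methods describe amplified cDNA from immunoprecipitated mRNA, whereas GEO's labels give total RNA as the source of the labeled cRNA.

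The pop-1 and bar-1 signals were highest in the strains that carry a transgene of the gene. The pop-1 signal was 8.67 to 11.71 in underactivation and 4.81 to 6.42 on the other 6 arrays, and the bar-1 signal was 9.64 to 11.75 in overactivation and 9.04 to 9.55 elsewhere. The seam cell list had a median log2 difference of 1.17 between overactivation and N2 (8 of 9 measured markers above 0). It was 0.32 between underactivation and N2 (6 of 9 above 0) and 0.62 between overactivation and underactivation (8 of 9). The paper counts egl-18, elt-6, grd-3 and che-14 of this list among its Wnt targets from this experiment. The parts of tag and Wnt response in the overactivation rise were not tested. The body wall muscle list had medians of -0.95 between overactivation and N2 and -0.83 between underactivation and N2 (11 of 12 below 0 in each). On the seam cell list underactivation replicate 4 lay within the N2 range, with a mean level of 6.93, against 6.72 to 7.14 in N2 and 7.51 to 7.99 on the other 5 tagged arrays. The array controls for actin and Gapdh, which compare the 3′ and 5′ ends of a transcript, also differed between conditions. The actin 3′ minus 5′ difference was 0.67 to 0.91 in N2, 1.47 to 2.25 in overactivation, and 2.08, 0.90 and 2.35 in underactivation replicates 2, 4 and 5. The heat shock gene hsp-70 was uneven within conditions. It read 5.86 to 11.16 in N2, 4.73 to 8.13 in overactivation and 6.93 to 10.06 in underactivation, and its relation to the members was not tested.

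Ribosomal protein genes were among the brightest on every array. The median member had a mean of 12.8 on the log2 scale over the 9 arrays, whereas the median of all genes was 4.83, and only 57 genes had a higher mean than the median member. The mean was over 12 for 51 members and over 13 for 26. On every array 52 members lay in the top 2% of genes and 59 in the top 5%. The median large subunit member read 13.1 and the median small subunit member 12.7, and 18 large and 8 small subunit members exceeded 13. These levels come from different probe sets, so they rank signals on the array and not transcript numbers.

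The brightest members belonged to the large subunit. The gene rpl-23, whose protein sits at the face that meets the small subunit, read 14.18, 14.23 and 13.91 in N2 replicates 2, 3 and 4. It read 14.12, 14.13 and 14.25 in overactivation replicates 1, 3 and 4, and 14.28, 14.33 and 14.06 in underactivation replicates 2, 4 and 5. The conditions overlapped, and the whole range was 0.42. The highest reading of any probe set on any array was 14.51, so the brightest members lay close to the top of the scale used by these arrays. After rpl-23 came rpl-12, the base of the stalk that receives elongation factors, then rpl-35, rpl-24 and rpl-39, with means between 13.77 and 14.03.

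At the other end, rpl-42 read between 2.13 and 2.93 on the 9 arrays, far under the other members and under the median of all genes. Whether that signal exceeded background was not tested. The remaining 61 members had means over 5. The next dimmest was rps-20, with a mean of 8.40, followed by rps-9, rpl-7 and rps-2 with means between 10.6 and 10.8.

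**Figure D1:**
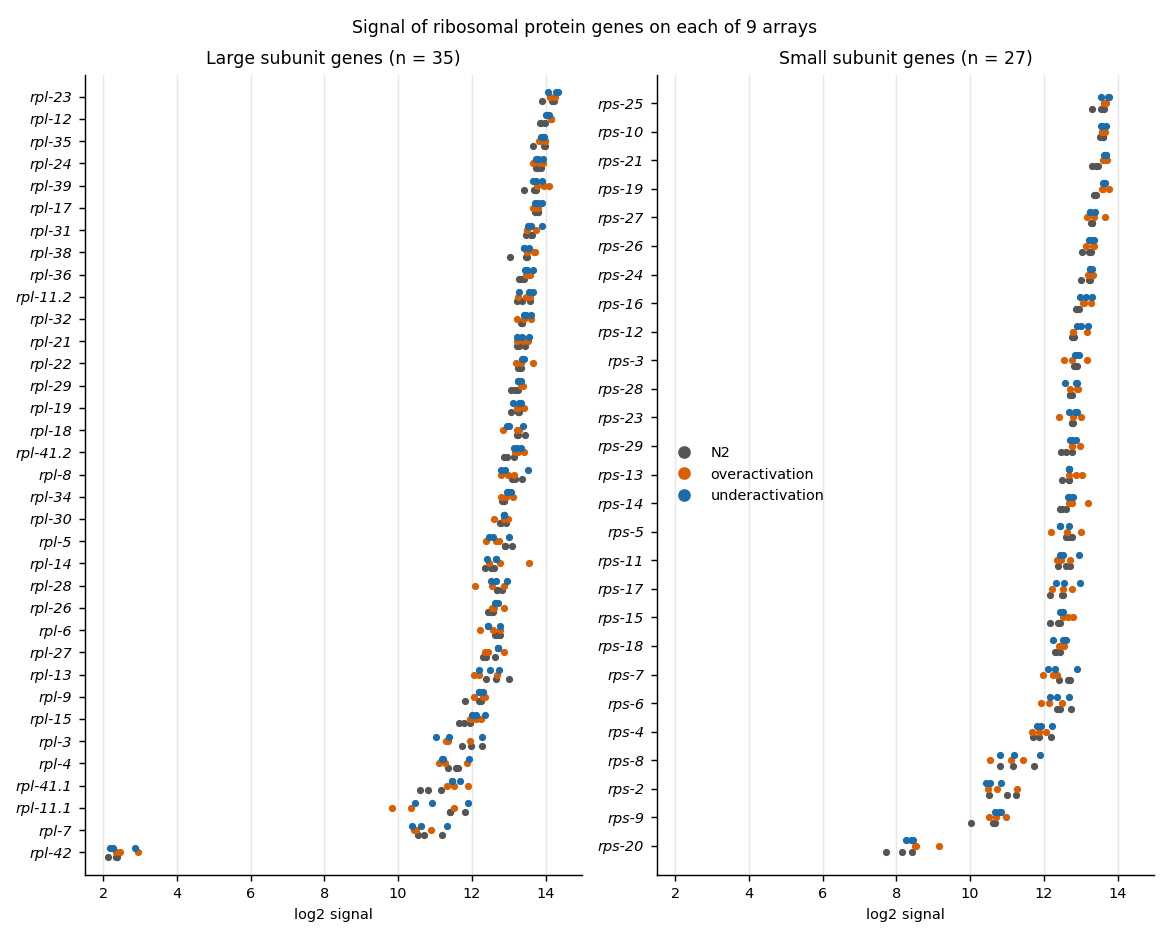
Log2 signal (horizontal axis) of the 35 large and 27 small subunit genes, ordered by mean, with 1 point per array coloured by condition (3 arrays each). 51 members have a mean over 12, rpl-42 stands alone near 2.4, and the 3 colours overlap in most rows.

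These signals also varied little. For 56 of the 62 members all 9 arrays lay within 1 log2 unit, and for 27 they lay within 0.5. The median standard deviation within a condition was 0.156 for the members and 0.357 over all genes. Members lie near the top of the scale and most other genes do not, and the part of signal level in this difference was not tested. The widest ranges belonged to rpl-11.1 (2.07), rps-20 (1.46), rps-8 (1.36), rpl-41.1 (1.31) and rpl-3 (1.25).

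No ribosomal protein gene passed the test in any of the 3 comparisons, in either subunit. A linear model with 3 conditions was fitted to all probe sets with limma, with Benjamini-Hochberg adjustment at a threshold of 0.05. Between overactivation and N2, 0 of 62 members were called, beside 1.57% of all genes. Between overactivation and underactivation it was 0 of 62, beside 0.00584%, and between underactivation and N2 it was 0 of 62, beside 0% of all genes. The smallest adjusted p of a member was 0.134, 0.925 and 0.248 in these comparisons in turn. With 3 arrays a condition, the 95% interval of a member's log2 difference extended a median of 0.404 to either side (range 0.331 to 1.08). The interval lay wholly within 1 log2 unit of 0 for 56 members between overactivation and N2, for 60 between overactivation and underactivation, and for 59 between underactivation and N2. For those members a 2-fold difference was outside the interval of the probe set used. Intervals of other probe sets were not computed, and some gave lower differences, such as -0.52 for rpl-9 between overactivation and N2. The 62 include rpl-42, whose signal was not tested against background.

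At an unadjusted p under 0.05, limma picked 2 members as higher in overactivation than in N2 (rpl-41.1 and rps-20) and 0 as lower, beside 9.75% and 7.57% of all genes. It picked 1 member, rpl-41.1, as higher in underactivation than in N2 and 0 as lower, beside 7.46% and 5.19%. Between overactivation and underactivation it picked 0 in either direction, beside 2.86% of genes higher and 3.05% lower (5.91% in all). In this fit each of these shares of members lay under the share of all genes. In a fit without limma's moderated variance the order was the other way for both comparisons with N2. That fit picked 13 members between overactivation and N2 and 8 between underactivation and N2, beside 15.1% and 9.98% of all genes.

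The 3 overactivation arrays lay above all 3 N2 arrays for 14 members (12.7% of all genes did so) and below them for 2, rpl-5 and rps-7 (7.83%). The 3 underactivation arrays lay above all N2 arrays for 17 members (9.4% of genes) and below them for 0 (6.44%). Between the tagged strains, overactivation lay above underactivation for 4 members, rpl-12, rpl-29, rps-15 and rps-20 (6.82%), and below for 0 (5.26%). N2 takes part in both comparisons with a tagged strain, so their counts are not independent. Both tagged conditions lay above N2 for 10 members, 5 from each subunit (5.19% of all genes), and below N2 for 0 (3.31%). The shares of members above N2 exceeded those of all genes, and the shares below N2 lay under them.

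The large and small subunit genes had nearly the same differences. Between overactivation and N2 the median log2 difference was 0.06 over the 35 large subunit genes (22 above 0). It was 0.10 over the 27 small subunit genes (18 above 0), and over all genes 0.07 (57.8% above 0). Between underactivation and N2 it was 0.09 (25 above 0) and 0.10 (22 above 0), and over all genes 0.03 (53.9% above 0). Between overactivation and underactivation it was -0.03 (14 above 0) and -0.0015 (11 above 0), and over all genes 0.03 (54.7% above 0). Over all 62 members the shares above 0 were 64.5%, 75.8% and 40.3% in the same order. The middle value of the absolute difference between overactivation and N2 was 0.159 over the members and 0.287 over all genes.

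The arrays within a condition differed more than the subunits did. Each array's median deviation from the gene means was -0.02, -0.02 and -0.13 for the large subunit in N2 replicates 2, 3 and 4, and -0.02, -0.09 and -0.07 for the small subunit. In overactivation replicates 1, 3 and 4 it was 0.16, -0.14 and -0.01 for the large and 0.23, -0.10 and 0.02 for the small subunit. In underactivation replicates 2, 4 and 5 it was 0.01, 0.15 and -0.03 for the large and 0.03, 0.11 and -0.02 for the small subunit. Both subunits were thus highest on overactivation replicate 1 and underactivation replicate 4. The large subunit median was lowest on overactivation replicate 3 and N2 replicate 4, and the small subunit median on overactivation replicate 3 and N2 replicate 3. The large minus small gap ran from -0.06 to 0.07 in N2, from -0.07 to -0.02 in overactivation and from -0.03 to 0.04 in underactivation, and all 3 conditions overlapped.

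Counted gene by gene over the 61 members other than rpl-42, overactivation replicate 1 was the highest array for 24 and underactivation replicate 4 for 23. Overactivation replicate 3 was the lowest for 21 and N2 replicate 4 for 22. The signal exceeded the gene mean for 55 members on overactivation replicate 1, for 49 on underactivation replicate 4 and for 15 on overactivation replicate 3. Without overactivation replicate 1 the median difference from N2 was -0.03 for the large and 0.07 for the small subunit genes, so the sign of the large subunit median rested on that array.

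**Figure D2:**
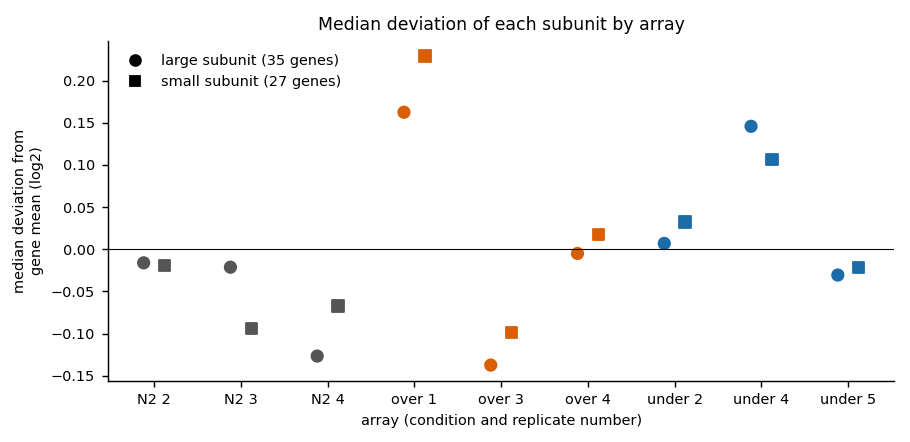
Median deviation from the gene mean in log2 units (vertical axis) on each of the 9 arrays, with circles for the large and squares for the small subunit and colour for the condition. Both subunits are highest on overactivation replicate 1 (0.16 and 0.23), and within each array the 2 symbols lie within 0.07 of each other.

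Among the large subunit genes, rpl-41.1 had the highest log2 difference in both comparisons with N2. It encodes the smallest protein of the eukaryotic ribosome. It read 11.16, 10.81 and 10.58 in N2, 11.89, 11.52 and 11.31 in overactivation, and 11.46, 11.47 and 11.69 in underactivation. All 6 tagged arrays lay above all 3 N2 arrays, and the tagged conditions overlapped. The difference from N2 was 0.72 ± 0.22 (SE, n = 3) in overactivation, which is 1.65-fold, with a limma adjusted p of 0.134. In underactivation it was 0.69 ± 0.22, 1.61-fold, with a limma adjusted p of 0.248. The copy rpl-41.2, which neighbours it in the annotation, read 12.86 to 13.16 in N2, 13.16 to 13.40 in overactivation and 13.15 to 13.33 in underactivation. Its differences were 0.28 and 0.24, in the same direction and smaller. Both genes were read by probe sets of the array's x class, in which some probes may match other sequences, so signal from one copy could reach the probes of the other.

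The lowest difference in all 3 comparisons was that of rpl-11.1. Together with rpl-11.2 it encodes L11, which with L5 carries the 5S ribosomal RNA into the large subunit. The rpl-11.1 signal was 11.41, 11.41 and 11.81 in N2, 11.53, 10.35 and 9.84 in overactivation replicates 1, 3 and 4, and 10.46, 11.90 and 10.92 in underactivation replicates 2, 4 and 5. Overactivation replicate 1 and underactivation replicate 4 read within or just above the N2 range, and the other 4 tagged arrays read below it. The log2 difference from N2 was -0.97 ± 0.48 (SE, n = 3) in overactivation, with a limma adjusted p of 0.327, and -0.45 ± 0.48 in underactivation, with a limma adjusted p of 0.788. The second was 0.03 with the actin 3′ minus 5′ difference as a covariate, an alternative chosen after seeing the data. Without overactivation replicate 1 the first was -1.45, and without underactivation replicate 4 the second was -0.85.

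The other L11 gene varied less in the probe set used, and more in its dimmer one. The probe sets of both L11 genes were of the s class, whose probes are shared by several transcripts. Signal shared between rpl-11.1 and rpl-11.2 was not tested. The rpl-11.2 signal stayed between 13.22 and 13.66 on all 9 arrays in the brighter probe set and ran from 10.07 to 11.45 in the dimmer one. In the brighter, its differences from N2 were 0.05 in overactivation and 0.12 in underactivation. The L5 gene, rpl-5, read 12.89, 12.89 and 13.10 in N2, 12.74, 12.37 and 12.66 in overactivation, and 12.47, 13.01 and 12.57 in underactivation. All overactivation arrays lay under the N2 arrays, with a log2 difference of -0.37 ± 0.20 (SE, n = 3) and a limma adjusted p of 0.386. Underactivation replicate 4 again lay inside the N2 range.

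Tissue markers moved on some of these arrays as well. The 15 germline markers, all measured, had a mean level of 5.83 to 5.88 in N2, 5.84 in overactivation replicate 1, 5.13 and 4.97 in overactivation replicates 3 and 4, and 5.29, 5.38 and 5.07 in underactivation replicates 2, 4 and 5. Their highest-reading gene was glh-1, a germline helicase, at 7.79 to 10.03, and the lowest were puf-5 and oma-1 with means of 3.51 and 3.61. Of the 15, 11 were below 0 between overactivation and N2 and 15 between underactivation and N2. Their median level was 4.98, close to the median of all genes (4.83), and their median difference between overactivation and N2 was -0.42. It was -1.04 for the intestinal list (9 of 12 below 0), -0.95 for body wall muscle (11 of 12) and -0.64 for neurons (10 of 12). The intestinal mean level was 6.72 to 7.39 in N2, 6.72, 6.35 and 6.00 in overactivation, and 5.86, 6.85 and 6.87 in underactivation. The part of these tissue differences in the rpl-11.1 values was not tested. The tagged strains make FLAG::PAB-1 in seam cells and VPCs and N2 has no tag, so the pools may differ in tissue content through capture alone. In RNA immunoprecipitated from pooled larvae, such a difference in capture, fewer cells of a type and less RNA per cell cannot be told apart.

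The large subunit proteins next to the site of peptide bond formation, encoded by rpl-3, rpl-4 and rpl-8, all had differences below 0 in all 3 comparisons, with 0 called. Between overactivation and N2 the median was -0.24, led by rpl-3 at -0.46. The rpl-3 signal was 11.72, 11.97 and 12.28 in N2, 11.94, 11.30 and 11.36 in overactivation, and 11.38, 12.27 and 11.03 in underactivation. Overactivation replicate 1 and underactivation replicate 4 again lay inside the N2 range, and the limma adjusted p was 0.533 for overactivation and 0.686 for underactivation, each against N2. With the actin 3′ minus 5′ difference as a covariate, the rpl-3 differences from N2 were 0.20 and 0.17. The 7 genes whose proteins line the rim of the exit tunnel had a median difference of 0.09 between overactivation and N2 (5 above 0). Between underactivation and N2 it was 0.09 (7 above 0), and over all genes 57.8% and 53.9% were above 0 in turn. Among the tunnel genes rpl-39, a small protein inside the tunnel, read 13.42 to 13.74 in N2 and 13.77, 14.10 and 13.96 in overactivation. Those arrays did not overlap, and the difference was 0.33, with a limma adjusted p of 0.376.

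The other large subunit genes named by rank had differences of 0.43 or less in size. The rpl-14 difference between overactivation and N2 was 0.43, but overactivation replicate 1 read 13.54 and all other arrays 12.35 to 12.77. Without that array the difference was 0.12 from N2 and 0.03 from underactivation. The gene rpl-13 read 12.05 to 12.68 in overactivation, overlapping N2, and its difference was -0.37. Between underactivation and N2 rpl-15 came second among the rises, with 11.66 to 11.95 in N2 and higher readings, up to 12.36, in underactivation, a difference of 0.35. Next to it rpl-27 read 12.29 to 12.63 in N2 and 12.71 on all underactivation arrays, a difference of 0.27. Between the tagged strains rpl-28 had a difference of -0.22, with overlapping arrays.

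Among the small subunit genes rps-20 had the highest difference between overactivation and N2. Its protein lies in the head, the upper domain of the small subunit. It read 8.41, 8.14 and 7.71 in N2, 9.16, 8.54 and 8.51 in overactivation, and 8.26, 8.40 and 8.46 in underactivation. All overactivation arrays exceeded all other arrays, and replicates 3 and 4 did so narrowly. The log2 difference from N2 was 0.65 ± 0.25 (SE, n = 3), 1.57-fold, with a limma adjusted p of 0.211. The difference from underactivation was 0.37 ± 0.25, with a limma adjusted p of 0.925. The dimmer of the gene's 2 probe sets gave 0.27 and 0.13.

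The head genes as a group were mostly above 0. Of 12 genes listed for the head, 11 had a difference above 0 between overactivation and N2 (median 0.14), with rps-5 the exception. Between underactivation and N2 it was again 11 (median 0.18), with the same exception. Over all 27 small subunit genes the counts were 18 and 22, and over all genes 57.8% and 53.9% were above 0. The gene rps-3, with -0.03 between overactivation and N2, was listed with the mRNA entry region below. Between the tagged strains the 12 head genes had a median of 0.02, with 7 above 0. Of the 12, 0 were called in any comparison. The head genes include rps-15, whose arrays read 12.18 to 12.44 in N2, 12.53 to 12.80 in overactivation and 12.45 to 12.53 in underactivation. The 3 genes of the platform, near which the mRNA leaves the subunit, had a median of 0.24 between overactivation and N2. They include rps-14, which read 12.44 to 12.60 in N2, 12.69 to 13.19 in overactivation and 12.65 to 12.80 in underactivation. Its difference was 0.37 and 0.20, with limma adjusted p of 0.331 and 0.739. Another platform gene, rps-13, differed by 0.18 between the tagged strains.

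The genes that encode the mRNA entry and decoding region (rps-2, rps-3, rps-9 and rps-23) had no shared direction. Between overactivation and N2 their median was -0.03, with 1 of 4 above 0. The gene rps-2 read 10.50 to 11.25 in N2, 10.49 to 11.26 in overactivation and 10.44 to 10.84 in underactivation, and its difference between underactivation and N2 was -0.31. In contrast rps-9 read 10.02 to 10.66 in N2 and 10.68 to 10.83 in underactivation, a difference of 0.33. These role groups were drawn up with the values known, so they order the description and support nothing.

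The lowest small subunit difference between overactivation and N2 was that of rps-7. It read 12.66, 12.40 and 12.70 in N2, 12.26, 11.99 and 12.35 in overactivation, and 12.29, 12.90 and 12.12 in underactivation. All overactivation arrays lay under all N2 arrays, and the difference was -0.39 ± 0.24 (SE, n = 3), with a limma adjusted p of 0.436. It was 0.15 with the actin covariate. The gene rps-6, whose protein is the substrate of S6 kinase, read 12.35 to 12.72 in N2, 11.93 to 12.50 in overactivation and 12.15 to 12.67 in underactivation. Its differences from N2 were -0.32 and -0.11. The gene rps-8 ranged from 10.54 to 11.91, with both ends in tagged arrays and 10.80 to 11.73 in N2. Its difference between the tagged strains was -0.27, which was 0.03 without underactivation replicate 4.

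**Figure D3:**
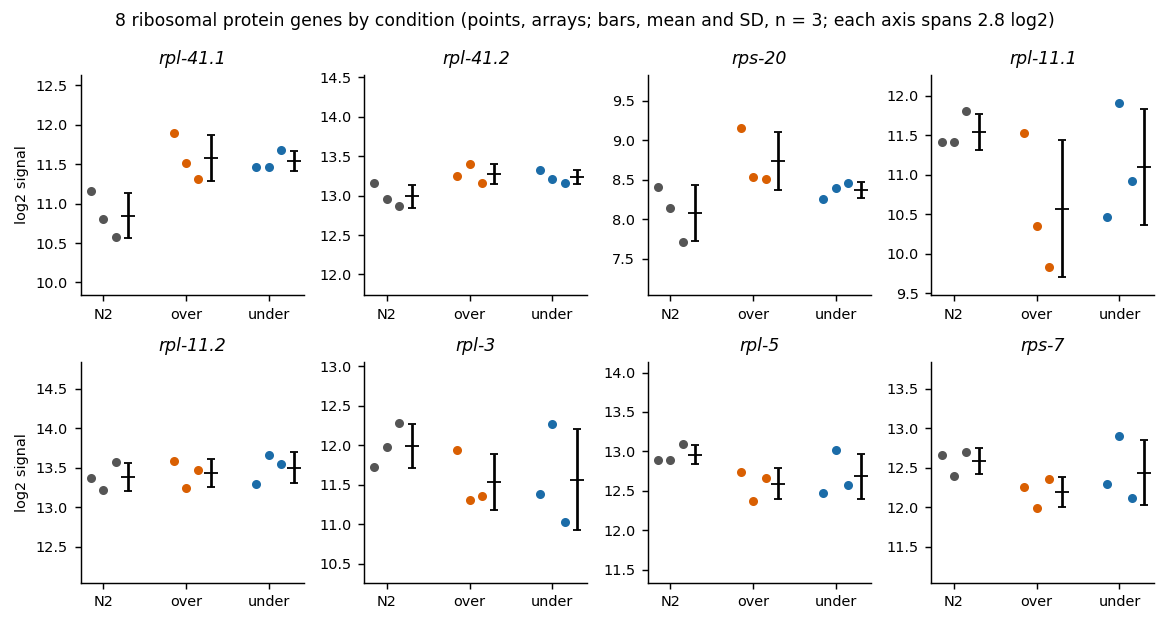
Log2 signal (vertical axis, 2.8 log2 units high in each panel) of 8 genes in N2, overactivation and underactivation, with 1 point per array and a bar for the mean and SD (n = 3). All 6 tagged arrays of rpl-41.1 lie above N2, whereas rpl-11.1 and rpl-3 spread widely in both tagged conditions and the rpl-11.2 probe set shown stays within 0.44.

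The differences from N2 were ordered by the length of the gene. Gene length here is the span annotated in RefSeq for WBcel235, introns included, and the 61 members other than rpl-42 were used. Between overactivation and N2 the Spearman correlation of log2 difference with span was -0.49 across the 61 genes, -0.50 within the 34 large subunit genes and -0.48 within the 27 small subunit genes. Between underactivation and N2, which shares the N2 arrays, it was -0.51, -0.59 and -0.42. Between the tagged strains it was -0.25 across the 61 genes. Over all 17077 genes with a span, it was -0.20, -0.17 and -0.09 for overactivation against N2, underactivation against N2 and the tagged strains. These are correlations across genes measured on the same arrays, and genes are not independent replicates.

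Ranked by span, the members were split into short, middle and long genes. Of the 21 short genes (307 to 633 bp), 19 had a difference above 0 between overactivation and N2, with a median of 0.15. Of the 20 middle genes (640 to 901 bp), 15 were above 0, with a median of 0.11. Of the 20 long genes (903 to 1734 bp), 5 were above 0 and 15 below, with a median of -0.09. Between underactivation and N2 the numbers above 0 were 20, 17 and 9. The short genes included 14 of the large and 7 of the small subunit and the long genes 12 and 8, so both subunits contributed at both ends. The ends of the scale included rpl-41.1 (403 bp) and rpl-3 (1734 bp), while rpl-11.1 (732 bp) lay away from the trend.

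**Figure D4:**
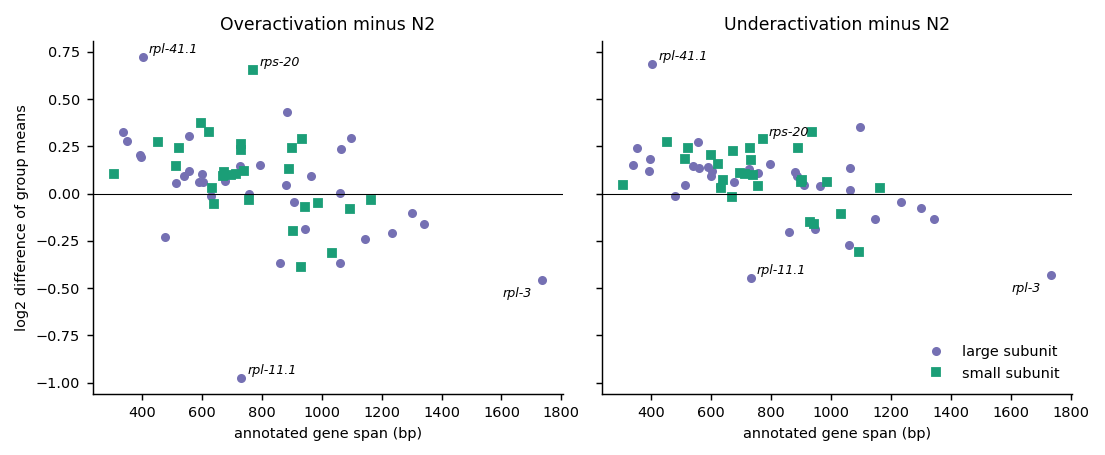
Log2 difference from N2 (vertical axis) against annotated gene span in bp (horizontal axis) for 61 members, with overactivation on the left and underactivation on the right; circles are large and squares small subunit genes. Short genes lie mostly above 0 (19 of 21 on the left) and long genes mostly below it on the left (15 of 20), and rpl-11.1 stands apart.

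The same ordering differed from array to array. The Spearman correlation of a member's deviation from its gene mean with its span was 0.36, 0.09 and 0.55 in N2 replicates 2, 3 and 4. It was 0.16, -0.52 and -0.38 in overactivation replicates 1, 3 and 4, and -0.57, 0.33 and -0.36 in underactivation replicates 2, 4 and 5. The values below 0 came from 4 of the 6 tagged arrays, and overactivation replicate 1 and underactivation replicate 4 stood within the N2 range. The actin 3′ minus 5′ difference, given above, was within the N2 range on underactivation replicate 4 (0.90) but not on overactivation replicate 1 (1.88). The matching Gapdh control was 2.02 to 2.96 in N2, 3.20 to 3.60 in overactivation and 2.87 to 4.06 in underactivation. Underactivation replicates 2 and 4 (2.92 and 2.87) lay within the N2 range of this control, although replicate 2 had the lowest correlation with span (-0.57). The part of these end differences in the values of the members was not tested.

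Probe sets of the same gene could differ. The 62 members had 92 probe sets of their own, and 27 members had more than 1. Of the 30 probe sets not used, 19 gave a lower difference between overactivation and N2 than the brightest one of the gene, by a median over the 30 of -0.10 and a range of -0.67 to 0.25. Between underactivation and N2 it was 12 of 30. The widest gap was that of rpl-9, with 0.15 for the probe set used and -0.52 for the other. For rpl-19 the values were 0.09 and -0.48, and for rps-16 they were 0.24 and -0.30. For rpl-12 the 3 probe sets gave 0.24, 0.32 and 0.34. Of the 92 probe sets, 0 were called in any comparison. By class of probe set, 9 of 11 members read by x class sets, 25 of 33 read by s class sets (probes shared by several transcripts) and 6 of 18 read by the remaining sets lay above 0 between overactivation and N2. The classes also differed in gene span, with medians of 558, 727 and 900 bp.

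Other genes of the translation machinery gave a background for these values. The 13 ribosomal protein genes with a letter in their symbol, which the rule left out, had medians of 0.12 between overactivation and N2 and 0.11 between underactivation and N2, with 0 called. Of the 4 stalk protein genes rplp-0, rplp-1, rplp-2.1 and rplp-2.2, 0 were called, and their medians were 0.05 and 0.15. The 59 mitochondrial ribosomal protein genes had medians of 0.34 and 0.28. At an unadjusted p under 0.05, limma picked 12 of them as higher and 1 as lower between overactivation and N2, beside the 9.75% and 7.57% of all genes, and 0 passed adjustment. Their median standard deviation within a condition was 0.432, wider than that of the cytosolic members, and their median level was 7.52. The 37 translation factor genes had medians of 0.22 and 0.11 with 0 called, and the 25 measured ribosome biogenesis genes had -0.04 and -0.08 with 0 called. Single genes with related roles also missed the threshold between overactivation and N2. The difference was 0.29 for rack-1, a scaffold on the small subunit head, 0.19 for fib-1, the nucleolar methylase fibrillarin, and -0.33 for pab-1, the gene behind the tag, whose probes could also read the transgene.

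Of 11 measured genes of the TOR and S6 kinase pathway, which couples nutrients to ribosome production, 1 was called between overactivation and N2, beside 1.57% of all genes. This was rsks-1, the gene for S6 kinase, which phosphorylates the product of rps-6. It read 7.11, 7.89 and 5.95 in N2, 4.05, 3.56 and 3.01 in overactivation, and 3.97, 4.74 and 3.65 in underactivation. All tagged arrays lay below N2 and below the median of all genes (4.83), and whether those signals exceeded background was not tested. The log2 difference between overactivation and N2 was -3.45 ± 0.51 (SE, n = 3), with a limma adjusted p of 0.0254. The call was lost when overactivation replicate 3, overactivation replicate 4 or underactivation replicate 2 was left out, with a limma adjusted p of 0.0876, 0.0577 and 0.0505. Between underactivation and N2 it was -2.87 ± 0.51, with a limma adjusted p of 0.095, and between the tagged strains -0.58, with a limma adjusted p of 0.943.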

How the data were processed

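The data were signals from 9 GeneChip arrays, with conditions and replicate numbers from the sample labels. Values were used as deposited, in log2 units; the authors made them by RMA in Partek, version not given in the sources used here. RMA scales arrays to one distribution and may compress differences between the brightest genes. Value columns not used numbered 0. The deIs10; scm::gfp arrays were not analysed here. Array controls (77) were left out, no filter on low signal was applied, and 22548 probe sets were tested. Gene names came from the platform annotation matched to RefSeq.

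In R 4.3.3 with limma 3.58.1, each probe set received a linear model of 3 conditions (empirical Bayes moderation, Benjamini-Hochberg adjustment, threshold 0.05), and plots used matplotlib. The procedure was tested on simulated data. Genes were named as the 5 largest differences in each direction per comparison, the 5 dimmest and brightest members, the 5 widest ranges and numbered pairs, with rack-1, rsks-1, fib-1 and pab-1; genes outside this rule (rps-15, role groups, stalk genes, glh-1, puf-5, oma-1 and genes with discordant probe sets) were chosen after their values were seen. Members and lists were chosen with earlier results of these data known. The number of arrays limits the precision.

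Alternatives were other normalizations, filters, probe set rules, moderation settings, a replicate block and leaving out each array. A further pair, an actin 3′ minus 5′ covariate and leaving out overactivation 1 with underactivation 4, were chosen after seeing the data.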

Additional observations from a re-analysis of the deposited data

How the results depend on the processing

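No ribosomal protein gene was called by limma in any comparison under any of the 21 alternatives, and every leave-one-out count was 0. Several alternatives called little or nothing anywhere on the array, so these zeros say little of stability. Over all features tested, 2 alternatives called 0 between overactivation and N2 (the fixed replicate block and the actin covariate), 9 between overactivation and underactivation and 13 between underactivation and N2. At an unadjusted p under 0.05, the fit without moderation picked 13, 1 and 8 members for overactivation against N2, overactivation against underactivation and underactivation against N2, beside 15.1%, 5.71% and 9.98% of all genes. The shares of members against N2 thus lay above those of all genes, whereas in the main fit they lay under them. Leaving out each array in turn gave a large subunit median of -0.03 to 0.13 and a small subunit median of 0.07 to 0.17 between overactivation and N2, with a large minus small gap of -0.093 to -0.025. The lowest gap came without overactivation replicate 1, alone or together with underactivation replicate 4. For overactivation against underactivation the ranges were -0.12 to 0.04, -0.04 to 0.05 and -0.086 to 0.018, and for underactivation against N2 they were 0.04 to 0.12, 0.05 to 0.14 and -0.05 to -0.0026. With each array centred on its median, the large and small subunit medians between overactivation and N2 were 0.12 and 0.16.

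Same-numbered arrays of different conditions had correlations of deviations between -0.09 and 0.23, and differently numbered arrays between -0.20 and 0.21. These few correlations cannot show whether arrays with the same number were handled together. With the number as a fixed replicate block, 0 members were called, the large and small subunit medians between overactivation and N2 were -0.02 and 0.05, and the gap between overactivation and underactivation was -0.071. With a random replicate block they were 0.06 and 0.11, with 0 called.

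With the actin 3′ minus 5′ difference as a covariate, chosen after seeing the data, 0 members were called, also at an unadjusted p under 0.05. The large and small subunit medians between overactivation and N2 were 0.21 and 0.25, the small subunit median between underactivation and N2 was 0.24 and that gap was -0.069. Differences that changed sign under this covariate were rpl-3 (0.20) and rps-7 (0.15) between overactivation and N2, and rpl-11.1 (0.029), rpl-3 (0.17), rpl-5 (0.051) and rpl-13 (0.036) between underactivation and N2. Between overactivation and underactivation rps-8 ranged from -0.51 to 0.030 over the single arrays left out, the latter without underactivation replicate 4, and rpl-14 was -0.048 without overactivation 1 and underactivation 4 together, a pair chosen after seeing the data. The small rpl-11.2 difference between overactivation and N2 was -0.0097 after another quantile normalization, -0.063 with the fixed replicate block, -0.0006 for the mean of its probe sets, -0.035 without N2 replicate 3 and -0.026 without overactivation replicate 1, alone or with underactivation replicate 4. The cause of these changes was not tested. The rsks-1 call between overactivation and N2 was also lost without moderation (limma fit without the moderated variance, adjusted p = 0.128), with only the compared conditions (0.0653), with the fixed replicate block (0.143) and with the actin covariate (0.673), over a range of adjusted p of 0.0126 to 0.673, and its difference stayed below 0 throughout. The 3 arrays a condition limit what could be called, and the dim signal of rpl-42 was not tested against background.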
